A study of Mus musculus with 4 samples.

Results

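The oligoadenylate synthetase (OAS) family was followed in cultured PyMT-A cells, a mouse mammary tumour line of FVB/NJ origin whose name refers to polyoma middle T, a viral oncogene used to start such tumours. Its members were the 7 rows of the count table whose gene symbols were Oas1a, Oas1b, Oas1g, Oas2, Oas3, Oasl1 and Oasl2, out of 33677 rows in all, and all 7 passed the low-count filter. Jagged1 cells had been infected with PMSCV-Jagged1 virus, a retrovirus carrying the Notch ligand Jagged1, and vector cells with PMSCV-puro virus. Each line gave 2 poly(A) RNA libraries, so both groups share the same parental tumour line and a retroviral infection. The labels name no clone and do not say that the 2 libraries of a line were separate cultures, so the p-values measure only the spread between these libraries, which may be technical.

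OAS enzymes bind double-stranded RNA and join ATP into short 2′,5′-linked chains of adenylate. These chains are second messengers of antiviral defence and are broken down again by dedicated enzymes. The genes are classic interferon targets: receptors for type I interferon act through the kinases Jak1 and Tyk2 on a transcription factor complex, ISGF3, that includes Stat2 and Irf9 and binds the interferon-stimulated response element in the promoters of such genes. The family in mouse includes members with little or no synthetase activity, among them Oasl1.

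All 7 members had lower mean levels in Jagged1 cells than in vector cells, as did 50.5% of all tested genes by the sign of the log2 fold change. The mean levels were lower by 10.6 to 30.3% in 6 of the members and by 50.5% in Oasl1. None passed the threshold of an adjusted p under 0.05 in edgeR's quasi-likelihood test across 13299 genes, where 0.00752% of genes (1, the transduced Jag1) did. With vector 1 or vector 2 left out, the log2 fold change of Jag1 was 5.06 and 4.82, against 4.93 with all libraries, but the adjusted p was 0.240 and 0.153. In every fit with 1 library left out, the lone library is assumed to vary like the pair of the other line, which alone supplies the spread. Calls in such fits differed even where the same vector pair remained. At an unadjusted p under 0.05 stood 2 members, Oasl1 and Oas3, against 3.96% of all genes tested. DESeq2 called 1 member, Oasl1, as lower, against 0.228% of its genes, and limma-voom called 0, against 0.00752%. Whole cultures were sequenced, so fewer expressing cells and less RNA per cell cannot be told apart. In 5 of the 7 members the Jagged1 libraries were both lower than either vector library, an order found in 15.1% of all tested genes. The median log2 fold change (Jagged1 over vector) was -0.39 over the members and -0.0025 over all tested genes.

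Jag1, which checks the labels, was read 5676 and 4493 times in the Jagged1 libraries, against 159 and 112 times in the vector libraries; these counts do not separate the virus from the cell's own gene. Total counts ranged from 12136227 to 20835208 per library, and single members were read between 801 and 9643 times. The row Rn18s-rs5, named for 18S ribosomal RNA, took 0.98% of the counts in vector 1 and 0.074% in vector 2. In the Jagged1 libraries it took 0.18% and 0.081%. Whether this bears on the Oas levels was not tested. The epithelial markers Krt8, Krt18, Epcam and Cdh1 were present throughout and summed to 3709 and 3132 CPM (counts relative to library size, scaled by the trimmed mean of M-values, TMM) in the Jagged1 libraries and 3579 and 3196 CPM in the vector libraries. The leading principal component, with 51.6% of the variance in log2 CPM, had both libraries numbered 1 at one end and both numbered 2 at the other. The next component, with 32.4%, had both Jagged1 libraries on one side and both vector libraries on the other. Some markers of other cell types moved with the library number. The 9 myeloid markers summed to 174 and 398 CPM in the Jagged1 libraries, against 210 and 239 CPM in the vector libraries, nearly all of it Cd14. The other 8 summed to 11.4 CPM in Jagged1 2 and 10.6 CPM in vector 2, against 1.79 CPM in Jagged1 1 and 1.78 CPM in vector 1. Of these 8, 5 were at 0 in Jagged1 1, 0 in Jagged1 2, 4 in vector 1 and 1 in vector 2. The 6 fibroblast markers summed to 10.5 and 63.2 CPM in the Jagged1 libraries, against 4.43 and 6.92 CPM in the vector libraries. Of these 6, Lum was at 0 in all libraries, and Col1a2 was read 280 times in Jagged1 2 and 0 times in the others. The 4 endothelial markers summed to 0.581 and 6.28 CPM in the Jagged1 libraries, against 0.661 and 2.77 CPM in the vector libraries, mostly Cdh5. The 3 plasmacytoid dendritic cell markers summed to 51.8 and 59.3 CPM in the Jagged1 libraries, nearly all of it Tcf4. In the vector libraries these 3 summed to 40.5 and 58.2 CPM. The 4 T and NK cell markers in the table were at 0 in all.

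All 7 genes lie on mouse chromosome 5 (GRCm38). Oas2, Oas3, Oas1b, Oas1g and Oas1a share a cluster from 120730333 to 120921652 with 5 other Oas1 genes, and Oasl2 and Oasl1 lie apart, between 114896936 and 114937915. RefSeq promoter sequences (GRCm38.p6) were at hand for 5 members, Oas1a, Oas1g, Oas3, Oasl1 and Oasl2. The response element was searched as GAAANNGAAA on both strands, from 250 bases before to 50 bases after the start. It was found in 3 of these 5 promoters and in 3.44% of the 32851 promoters of the same length in the table. The last 120 bases before the start are shown for the 3 members that hold it and for Oasl1, the member with the largest difference, with each match in capitals and each strand read 5′ to 3′.

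Oas1a, chr5:120907526-120907645, minus strand: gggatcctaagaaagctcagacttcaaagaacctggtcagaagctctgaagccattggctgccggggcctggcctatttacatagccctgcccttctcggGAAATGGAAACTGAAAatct
Oas1g, chr5:120887614-120887733, minus strand: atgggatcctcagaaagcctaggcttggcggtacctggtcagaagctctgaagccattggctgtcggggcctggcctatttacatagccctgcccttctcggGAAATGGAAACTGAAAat
Oas3, chr5:120777660-120777779, minus strand: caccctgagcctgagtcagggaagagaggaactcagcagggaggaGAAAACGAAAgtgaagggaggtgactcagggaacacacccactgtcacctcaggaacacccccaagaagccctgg
Oasl1, chr5:114923120-114923239, plus strand: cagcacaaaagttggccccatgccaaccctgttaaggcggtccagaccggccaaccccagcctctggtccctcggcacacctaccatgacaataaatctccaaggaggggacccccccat

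Oas1a and Oas1g each held 2 overlapping matches just before the start, and their 300-base promoters were 85.3% identical in a global alignment. Oas3 held 1 match further upstream, from base -75 to -66. No match to these letters was found in the windows of Oasl1 and Oasl2. The gamma-activated site, searched as TTCNNNGAA, was found in 1 of the 5 promoters (Oas1a) and in 8.30% of all. The core motif of RBPJ, the DNA-binding factor of Notch signalling, was searched as TGGGAA and was found in 3 of the 5 (Oas1a, Oas1g and Oas3) and in 25.6% of all. These matches describe letters in a window and do not show binding.

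Oasl1 had the largest difference of the family. In mouse it encodes an OAS-like protein without synthetase activity that restrains translation of the mRNA of Irf7. Its level was 110 and 103 CPM in the Jagged1 libraries, against 234 and 197 CPM in the vector libraries. The groups did not overlap, and the highest Jagged1 library lay well under the lowest vector library. The means were 107 ± 5.07 CPM in Jagged1 cells and 215 ± 25.7 CPM in vector cells (SD, n = 2 each). The log2 fold change was -1.02 ± 0.16 (SE), a level 50.5% lower in Jagged1 cells, with an adjusted p of 0.712 in edgeR and 0.00105 in DESeq2. By unadjusted p (0.00112, edgeR's test across all genes) Oasl1 stood at rank 18 of 13299. DESeq2 called 0.228% of its genes lower. Without the low-count filter Oasl1 also passed in edgeR (adjusted p = 0.00104), where 0.276% of genes were called lower. An antisense gene, Gm13822, overlaps 38 exonic bases of Oasl1, or 1.46% of its exons, and reads there could not be assigned without strand.

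Leaving out 1 library kept the direction of Oasl1, with log2 fold changes from -1.14 to -0.87. The value was -1.07 without Jagged1 1 and -0.97 without Jagged1 2, and the same vector pair supplied the spread in both fits. Whether Oasl1 passed differed between these fits. The same counts can be given as a share of the family, which does not depend on scaling between libraries. Since Oasl1 was singled out for the largest difference, a lower share in Jagged1 cells follows from that choice and adds no support. Oasl1 reads were 8.52% and 7.56% of all reads of the 7 genes in the Jagged1 libraries, against 13.7% and 10.9% in the vector libraries. Exact 95% binomial intervals, which cover counting error only, ran from 7.19 to 8.86% over the Jagged1 libraries and from 10.5 to 14.2% over the vector libraries. For each Oasl2 read there were 0.236 and 0.261 Oasl1 reads in the Jagged1 libraries and 0.446 and 0.362 in the vector libraries. The same order held per read of Oas1a, Oas1b and Oas3, while per read of Oas1g and Oas2 the groups overlapped.

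**Figure D1:**
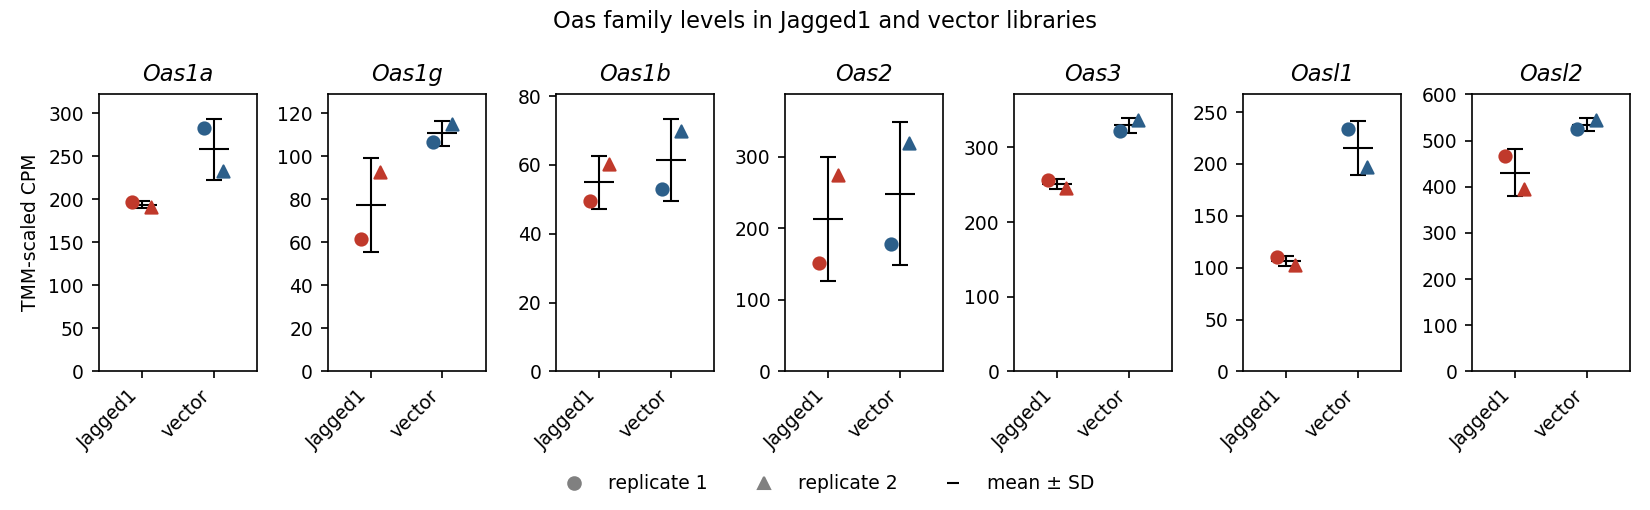
TMM-scaled CPM of the 7 Oas genes in each library, with Jagged1 cells left of vector cells, circles for replicate 1, triangles for replicate 2, and the mean ± SD (n = 2 each). Oasl1 sat at 110 and 103 CPM in Jagged1 cells against 234 and 197 CPM in vector cells, while the Oas2 and Oas1b libraries of the lines overlapped.

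Oasl2, the relative of Oasl1 that keeps synthetase activity in mouse, took the most reads of the family. Its level was 467 and 395 CPM in the Jagged1 libraries, against 524 and 545 CPM in the vector libraries. The groups did not overlap, but the gap between them was smaller than the gap between the Jagged1 libraries. The log2 fold change was -0.31 ± 0.16 (edgeR adjusted p = 1.000), and it lay between -0.44 and -0.19 with 1 library left out.

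Oas3, the largest synthetase of the family, had the closest replicates over both lines. Its level was 256 and 246 CPM in the Jagged1 libraries, against 322 and 337 CPM in the vector libraries. The log2 fold change was -0.39 ± 0.14, with an unadjusted p of 0.0380 and an adjusted p of 1.000 in edgeR's test. With 1 library left out it moved little, from -0.42 to -0.36.

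Oas1a, a synthetase, stood at 197 and 191 CPM in the Jagged1 libraries, against 283 and 233 CPM in the vector libraries. The groups did not overlap, with a log2 fold change of -0.41 ± 0.17 (edgeR unadjusted p = 0.0503 and adjusted p = 1.000). Without vector 1 the value was -0.24, and the other libraries left out in turn gave -0.56 to -0.39. Oas1g, also a synthetase, was at 61.7 and 92.7 CPM in the Jagged1 libraries, against 106 and 115 CPM in the vector libraries. Here the Jagged1 libraries lay far apart, and the log2 fold change of -0.52 ± 0.23 became -0.26 without Jagged1 1 and -0.84 without Jagged1 2. The 2 genes are close copies: of the 50-base stretches in the annotated transcripts of Oas1a, 57.6% also occur in Oas1g, and 45.2% of those of Oas1g occur in Oas1a. The division of reads between them is therefore uncertain. Oas2, Oas3, Oasl1 and Oasl2 shared 0 such stretches with any other Oas gene.

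Oas2 and Oas1b did not separate the lines. Oas2, a larger synthetase than the Oas1 proteins, was at 152 and 275 CPM in the Jagged1 libraries, against 178 and 319 CPM in the vector libraries. In both lines the library numbered 2 was higher, by 0.85 in Jagged1 cells and 0.84 in vector cells on the log2 scale, so the lines overlapped. The log2 fold change between lines was -0.22 ± 0.39, and it was positive without Jagged1 1 (0.15) and without vector 2 (0.25). Between libraries of the same number, Jagged1 minus vector was -0.23 for number 1 and -0.22 for number 2, although the labels do not say that such libraries were handled together. The sum of the 8 myeloid markers given above was also higher in both libraries numbered 2, but not every marker was. Lyz2 alone stood at 6.43 CPM in Jagged1 2 and 5.78 CPM in vector 2. The part of these markers in the Oas2 levels was not tested.

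Oas1b is the flavivirus resistance gene of the mouse, which in many laboratory strains carries a stop codon, and GENCODE annotates it as a polymorphic pseudogene. Which allele the FVB/NJ cells carry was not analysed here. Its level was 49.5 and 60.4 CPM in the Jagged1 libraries, against 53.0 and 69.9 CPM in the vector libraries. The lines overlapped, the library numbered 2 was again the higher in each, and the log2 fold change was -0.16 ± 0.21. It was 0.043 without vector 2 and -0.024 without Jagged1 1.

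**Figure D2:**
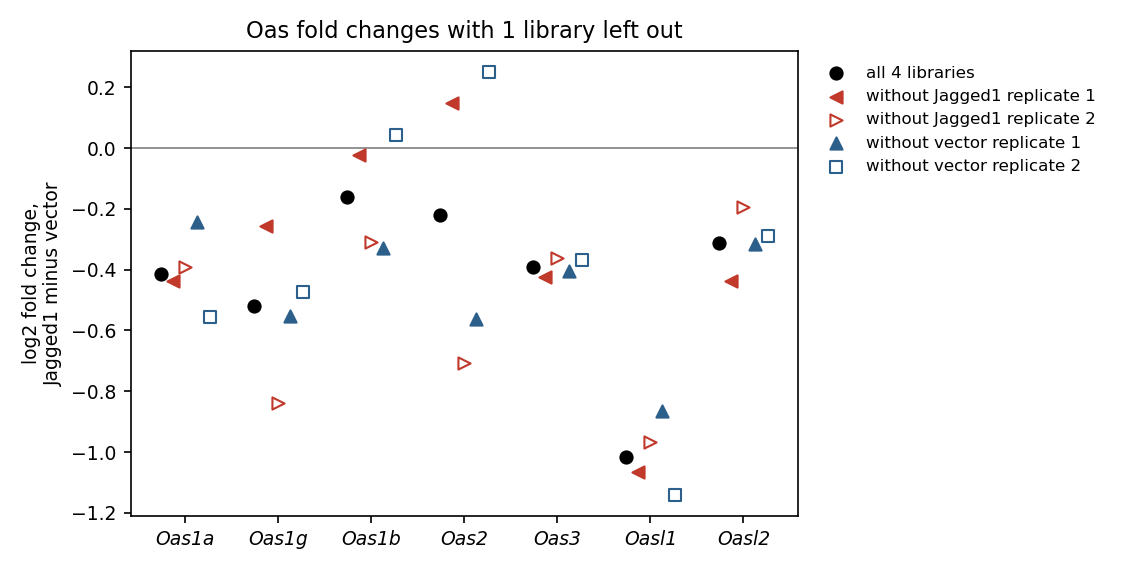
Log2 fold changes (Jagged1 minus vector, edgeR) of the 7 Oas genes with all 4 libraries and with each library left out. Oasl1 stayed between -1.14 and -0.87 and Oas3 between -0.42 and -0.36, while Oas2 ran from -0.71 to 0.25.

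Summed, the 7 genes took 1293 and 1362 CPM in the Jagged1 libraries, against 1700 and 1816 CPM in the vector libraries, so that the summed level was 24.5% lower in Jagged1 cells. Per kilobase of annotated exon, levels can be set beside each other. In Jagged1 cells Oas1a came first (103 ± 2.18 CPM per kb), then Oasl2 (67.6 ± 7.96), Oas2 (47.9 ± 19.5), Oasl1 (40.9 ± 1.94), Oas3 (35.5 ± 1.03), Oas1g (33.0 ± 9.37) and Oas1b (27.6 ± 3.87; SD, n = 2 each). In vector cells the order was Oas1a (137 ± 18.9 CPM per kb), Oasl2 (83.8 ± 2.28), Oasl1 (82.6 ± 9.85), Oas2 (55.9 ± 22.4), Oas1g (47.3 ± 2.49), Oas3 (46.6 ± 1.47) and Oas1b (30.8 ± 6.03). Taking the summed SDs of neighbours as the yardstick, Oas1a and Oasl2 stood apart in both lines, as did Oasl1 and Oas3 in Jagged1 cells and Oas3 and Oas1b in vector cells. The other neighbours lay within their spread. The order depends on the length used. With the longest transcript in place of all exons, Oasl2 came first in both lines. It stood at 138 ± 16.2 CPM per kb in Jagged1 cells and 171 ± 4.66 in vector cells. By that length Oas3 lay above Oasl1 in Jagged1 cells, at 53.2 ± 1.54 against 48.9 ± 2.32 CPM per kb.

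Of the other Oas1 genes, Oas1c was at 9.05 and 8.38 CPM in the Jagged1 libraries, against 11.2 and 10.5 CPM in the vector libraries, with a log2 fold change of -0.31 ± 0.23. Oas1h was read 37 and 33 times in the Jagged1 libraries and 16 and 39 times in the vector libraries. Oas1d, Oas1e and Oas1f had at most 3 reads in any library, the count taken here as the floor of detection.

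Of the genes listed with the products of OAS, 3 were tested and 1 had a negative value. In edgeR, DESeq2 or limma-voom 0 passed, and 0 had an unadjusted p under 0.05 in edgeR. Pde12 and Akap7 encode proteins that break down the 2′,5′-linked chains. Pde12 was at 31.9 and 24.6 CPM in the Jagged1 libraries, against 36.0 and 35.3 CPM in the vector libraries. The groups did not overlap, with a log2 fold change of -0.33 ± 0.19 that lay between -0.53 and -0.16 with 1 library left out. Akap7 was nearly level, at 9.92 and 10.5 CPM in the Jagged1 libraries and 10.1 and 9.85 CPM in the vector libraries (0.035 ± 0.22). Abce1, a factor of ribosome recycling also listed with this route, stood at 0.057 ± 0.24.

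The route from the interferon receptor to ISGF3 showed small values, with 4 of 6 tested genes negative and a median of -0.045. In edgeR, DESeq2 and limma-voom 0 passed, and 0 had an unadjusted p under 0.05 in edgeR. Stat2 was at 137 and 208 CPM in the Jagged1 libraries, against 201 and 236 CPM in the vector libraries. Jagged1 2 lay between the vector libraries, so the lines overlapped, with a log2 fold change of -0.34 ± 0.24 that ran from -0.68 to -0.068 with 1 library left out. Irf9 (-0.072 ± 0.14) was also negative, as were the kinase genes Jak1 (-0.14 ± 0.18) and Tyk2 (-0.017 ± 0.18). The receptor genes Ifnar1 and Ifnar2 were at 0.038 ± 0.17 and 0.37 ± 0.35. Ifnar2 was highest in Jagged1 2, at 89.0 CPM against 42.6 CPM in Jagged1 1, and its value was -0.26 without Jagged1 2.

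**Figure D3:**
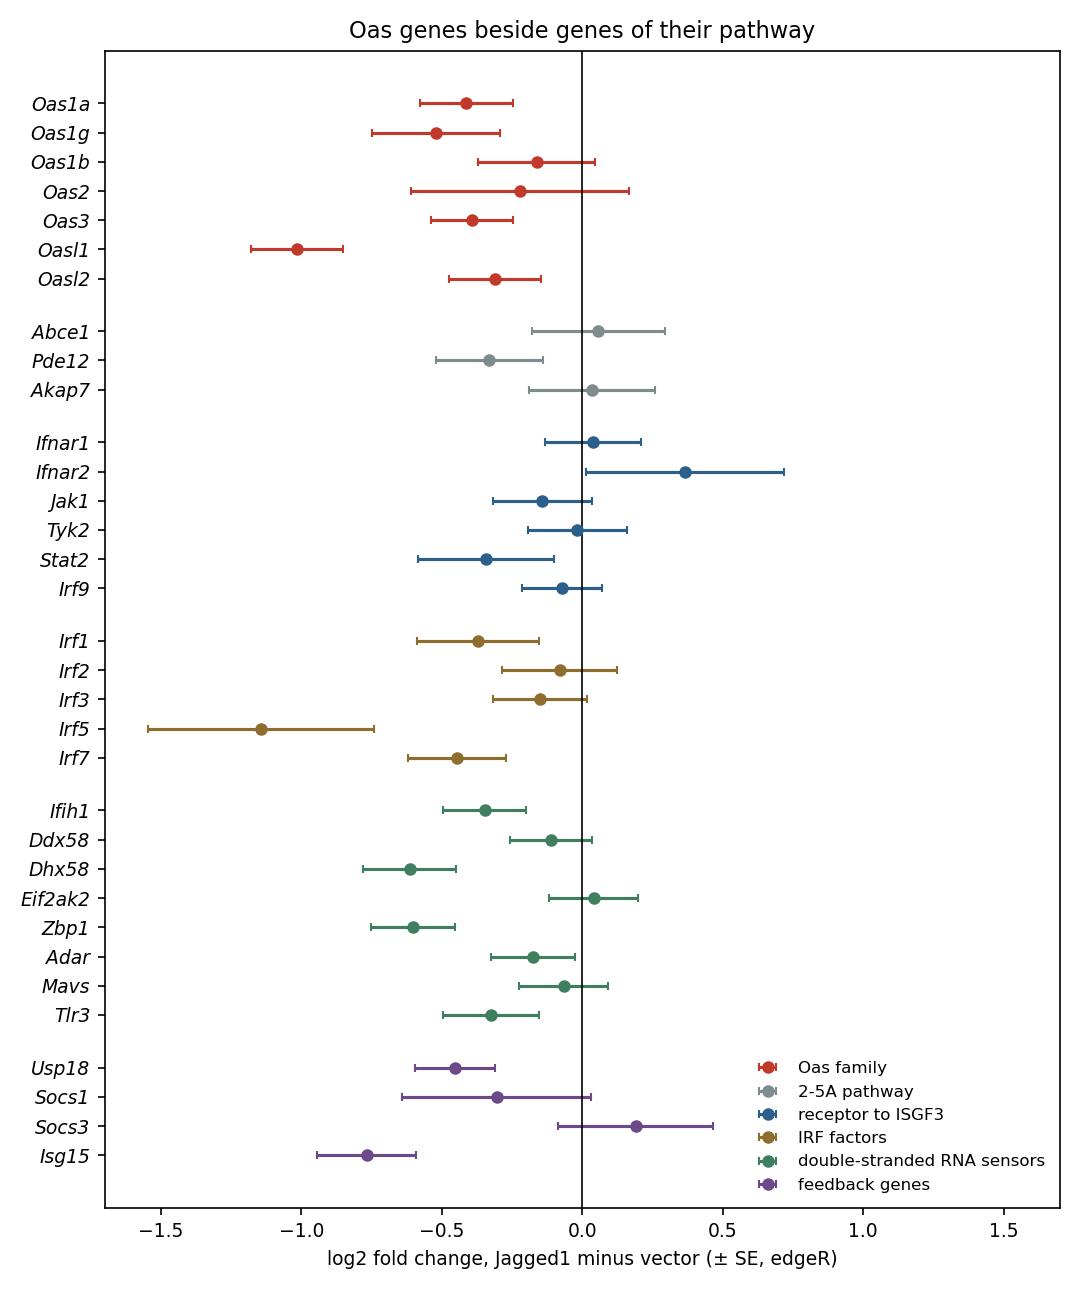
Log2 fold changes (Jagged1 minus vector, ± SE, edgeR) of the 7 Oas genes above the tested genes of other lists. Those lists are the 2-5A pathway (genes listed with the 2′,5′-linked chains), the path from receptor to ISGF3, the IRF factors, RNA sensing genes and feedback genes. The Oas genes lay between -1.02 and -0.16, while Ifnar2 stood at 0.37 with an SE of 0.35.

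Transcripts of interferons themselves were near the floor. Ifnb1, the gene of interferon beta, was read 1 and 0 times in the Jagged1 libraries, against 10 and 5 times in the vector libraries. Per total count this was a ratio of 0.0538 (exact 95% interval 0.00128 to 0.350, counting error only). The gene did not reach the low-count filter, and without that filter its adjusted p in edgeR was 0.269. Ifna4 was read 0 and 1 times in the Jagged1 libraries and 2 and 3 times in the vector libraries, Ifnl2 and Ifnl3 had at most 5 reads in a library, and Ifng had 0 in all.

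Among the interferon regulatory factors all 5 tested genes were negative, against 50.5% of all genes. Of these, 3 had both Jagged1 libraries below both vector libraries, against 15.1% of all tested genes. Irf7, which drives interferon genes and whose mRNA is the target of Oasl1 in mouse, was at 579 and 537 CPM in the Jagged1 libraries, against 836 and 685 CPM in the vector libraries (log2 fold change -0.45 ± 0.17). Irf5 was at -1.15 ± 0.40 from 21 to 45 reads a library, and Irf1 at -0.37 ± 0.22, a value that was -0.058 without vector 1. In edgeR, DESeq2 and limma-voom 0 passed, and 2, Irf5 and Irf7, had an unadjusted p under 0.05, against 3.96% of all genes.

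Other genes listed with the sensing of double-stranded RNA and Z-form nucleic acid, Mavs and Adar among them, were negative in 7 of 8. Among the 7, 6 showed no overlap between the lines. The members with the smallest unadjusted p were Zbp1 (-0.60 ± 0.15), Dhx58 (-0.61 ± 0.17) and Ifih1 (-0.35 ± 0.15). Eif2ak2, the gene of the RNA-activated kinase PKR, was the exception at 0.041 ± 0.16. Of 4 tested feedback genes 3 were negative, with Isg15 at -0.77 ± 0.18, Usp18 at -0.45 ± 0.14 and Socs1 at -0.30 ± 0.34. Socs3 went the other way, at 0.19 ± 0.28. Of 20 further antiviral genes 19 were negative, 13 of them without overlap, and their median of -0.33 lay close to the -0.39 of the Oas family. In these 3 lists 0 of 32 genes passed in edgeR, and 12 had an unadjusted p under 0.05, against 3.96% of all genes. DESeq2 called 4, all lower, against 0.228% of its genes, and limma-voom called 0, against 0.00752%. The share of negative values over all tested genes was 50.5%. Genes lower in Jagged1 cells without overlap between the lines made up 15.1% of all tested genes. The genes of these lists called under at least 1 alternative fit were Rsad2 (-1.39 ± 0.20), Ifit3 (-1.33 ± 0.14), Ifit3b (-1.02 ± 0.16), Cmpk2 (-0.99 ± 0.18) and Mx1 (-1.04 ± 0.26); Ifit3 and Ifit3b are close copies whose reads may be split uncertainly. The value of Oasl1 lay within the range of these 5 genes, and those of the other 6 Oas genes lay closer to 0. These 5 genes were named because a fit called them, so this difference follows from that choice.

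**Figure D4:**
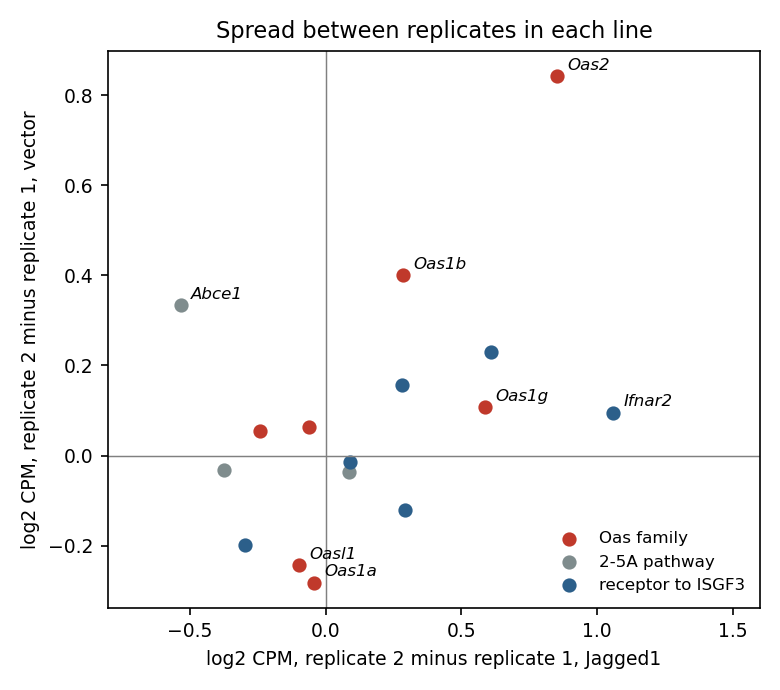
Difference in log2 CPM between replicate 2 and replicate 1, in Jagged1 cells (horizontal axis) and in vector cells (vertical axis), for the Oas genes, the 2-5A pathway and the path from receptor to ISGF3. Oas2 lay at 0.85 and 0.84, and Ifnar2 at 1.06 in Jagged1 cells and 0.095 in vector cells.

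The mean profile of the family over the 4 libraries, each gene centred on its own mean log2 CPM, was compared with those of 9325 other genes of at least 10 CPM. The 5 nearest by Euclidean distance were Ubl3 (0.0481), Pdia3 (0.0543), Pml (0.0551), Sec24d (0.0664) and Tgfa (0.0679). Their log2 fold changes ran from -0.42 in Ubl3 to -0.37 in Tgfa, with 0 past the threshold in edgeR, DESeq2 or limma-voom. In edgeR 2 had an unadjusted p under 0.05, against 3.96% of all genes. Since the 5 genes were chosen for their likeness to the family, these values follow from that choice and add no support. Of the pathway genes named above, Usp18 stood at place 146, Stat2 at place 623 and Rsad2 at place 8812. A profile over 4 libraries holds few degrees of freedom, so this ranking is a description.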

How the data were processed

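The authors deposited unnormalized whole-number counts of reads, with a row for each gene symbol and a column for each library. STAR 2.6.0c, featureCounts 1.6.2 and the mouse build mm10 (GRCm38) are named in the submitters' processing notes. The annotation release, the strand setting and the handling of reads with several positions were not given in the sources used here. Low-count genes were removed (edgeR 4.0.16 in R 4.3.3, filterByExpr with a minimum count of 10). The rest were scaled with TMM factors and tested with the quasi-likelihood F test (robust and legacy settings), with Benjamini-Hochberg adjustment over all 13299 genes. The test was also run on counts simulated with a single fixed dispersion and no difference between replicate numbers. That run does not show how the test behaves at the spread of these libraries. Standard errors are the absolute log2 fold change over the square root of F. DESeq2 1.42.0, limma-voom (limma 3.58.1), other filters, other factors, a replicate block and each library left out were the alternatives. An exact two-sided permutation test of 2 against 2 libraries cannot go below p = 0.333, so none was run. Gene positions, exon lengths and transcripts came from GENCODE M21 (GRCm38). Floors were 3 counts, or 0.144 to 0.247 CPM. Replicates differed by more than sampling noise (chi-square per degree of freedom 50.6 for Jagged1 and 32.3 for vector) and were counted separately. The Oas members and the pathway lists were chosen with earlier results of these data known, so no test over a list was made. Named were all members, Jag1, the 2-5A pathway, the path to ISGF3 and, of the other lists, genes called in any fit and the 3 of smallest p. A few others were named as exceptions in a list or to describe it. Results on some genes of these pathways are not reported here, and list counts are without them.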

Additional observations from a re-analysis of the deposited data

How the results depend on the processing

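The number of genes past the threshold, 1 in the edgeR test, was 169 without the low-count filter, 47 with DESeq2 and between 0 and 193 with 1 library left out. It was 17 in a fit with the replicate number as a block; the deviations of same-numbered libraries from their line means correlated at r = 0.425 across genes, but the labels do not say that a number marks a shared culture. Under the block Oasl1 had a log2 fold change of -1.01 (edgeR adjusted p = 0.0566) and 0 Oas members passed. Over all these alternatives the median of the 7 members lay between -0.42 and -0.37, and 5 to 7 members were negative. Values that changed sign with 1 library left out were those of Oas2 (-0.71 to 0.25), Oas1b (-0.33 to 0.043), Abce1 (-0.23 to 0.30), Akap7 (-0.0076 to 0.077), Ifnar1 (-0.11 to 0.18), Ifnar2 (-0.26 to 0.80) and Tyk2 (-0.16 to 0.12); Tyk2 was also at 0.0021 with a minimum mean of 5 CPM. The cause was not tested. Without vector 1 or vector 2, where the Jagged1 pair alone supplies the spread, Jag1 had an edgeR adjusted p of 0.240 and 0.153, with log2 fold changes of 5.06 and 4.82 against 4.93.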

Other observations

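The genes around the Oas genes on chromosome 5 were also measured. Within 200 kb of the larger cluster 6 other genes were tested, with a median log2 fold change of 0.048 and a range of -0.13 to 0.37, and 2 of them were negative. Among these neighbours were Dtx1 (0.11 ± 0.45) and Rita1 (0.029 ± 0.24), both known as regulators of Notch signalling. Within 200 kb of Oasl1 and Oasl2 there were 7, with a median of -0.015 and a range of -0.14 to 0.17. Of these 13 genes, 0 passed in edgeR, DESeq2 or limma-voom, and 0 had an unadjusted p under 0.05 in edgeR.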
